A study of Gallus gallus with 20 samples.

Results

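Ileal tissue of broiler chickens held a small set of genes whose level differed severalfold between birds on the same feed. The 5 birds of the avilamycin group (D2, D3, D4, D5 and D7) and the 5 control birds (A3, A4, A5, A6 and A7) were aged 35 days, and RNA from a piece of the mid-ileum of each was made into 2 technical libraries, 20 in all. Avilamycin is an oligosaccharide antibiotic against Gram-positive bacteria used as a growth-promoting feed additive for poultry. The labels name the groups only as Avilamycin and Control and give no dose, duration of feeding, strain or sex.

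Members were chosen from the counts themselves. Counts of the 2 libraries of a bird were summed and scaled to the bird's total as CPM (the share of the bird's counts, scaled to a common total). Of 24356 gene IDs, 10761 had a mean of at least 5 and under 1000 CPM, and 10741 of these had at least 0.2 CPM in all 10 birds. In 111 of them the standard deviation (SD) between birds of the same feed, on the log2(CPM + 0.5) scale and pooled over both feeds, was at least 0.8. From these, 4 genes whose avilamycin and control birds did not overlap were left out. A further gene that parted birds A4, A6, A7 and D7 from the other 6 was left out as well, a division seen earlier in these data that no label accounts for. This division is uneven between feeds, A4, A6 and A7 being control birds and D7 an avilamycin bird. It was not modelled, and its part in the spread within feeds and in differences between feeds was not tested. The remaining 106 genes are the members, 0.987% of the 10741 genes. The SD between birds therefore chose them and is given as a description only. The 3 members just inside the limit had an SD of 0.803, 0.803 and 0.806, and the 3 genes just outside it had 0.7999, 0.799 and 0.796.

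The wall of the ileum combines absorptive and secretory epithelium, crypts with dividing cells, lymphoid tissue, smooth muscle, nerves and vessels. A small piece can hold these in different proportions, immune tissue can be active in one bird and quiet in the next, and inherited variants can leave a gene nearly silent in some birds. In RNA from whole tissue, fewer cells of a type and less RNA per cell cannot be told apart. The deposited table gives Ensembl gene IDs without symbols, and the reference gene table used here holds no Ensembl IDs, so 0 of them could be matched. The functions of the members, and the markers that would check the labelled tissue, are therefore not described, and members are given by ID.

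Most members were of low or moderate abundance. Their mean level ran from 5.04 to 828 CPM with a median of 18.0 CPM, against 31.6 CPM over the 10741 genes. In all, 30 members averaged under 10 CPM and 10 averaged 100 CPM or more. The smallest summed count of any member in a bird was 9 and the largest 135600. The SD between birds had a median of 1.03 and a maximum of 2.22 log2 units, against a median of 0.153 over the 10741 genes. Between the lowest and the highest of all 10 birds, levels differed by 4.25-fold to 307-fold, with a median of 11.8-fold. These ratios span both feeds and so include any difference between them. The difference was at least 10-fold in 60 members, at least 50-fold in 17 and at least 100-fold in 6.

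The 2 technical libraries of a bird were compared to show how far the counts repeat. The SD between libraries, which the choice of members did not use, had a median of 0.148 log2 units in the members and of 0.0921 over the 10741 genes. The SD between birds was a median of 7.66 times the SD between libraries in the members, and 1.64 times over the 10741 genes. The SD between birds chose the members, so a larger ratio than over all genes follows from that choice and is a description only. The ratio was lowest in ENSGALG00000048273, a member singled out after its values were seen, at 2.12, and its libraries differed by up to 1.44 log2 units within a bird. In 104 members no bird's libraries differed by more than 1 log2 unit.

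**Figure D1:**
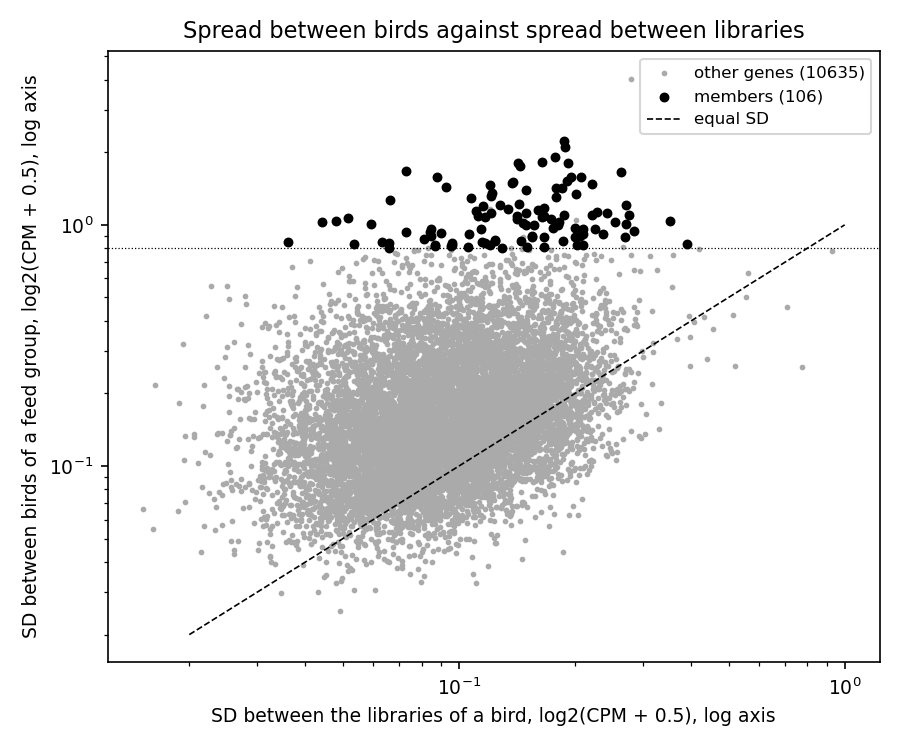
SD between birds of the same feed (vertical, log axis) against SD between the libraries of a bird (horizontal, log axis), both in log2(CPM + 0.5), for the 106 members in black and the other 10635 genes in grey. The dotted line is the limit of 0.8 that chose the members, and all members lie above the dashed line of equal SD, with a lowest ratio of 2.12.

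A test of the second against the first library within birds asked whether technical libraries differed in a shared direction. Of 15613 genes tested, 83 passed an adjusted p of 0.05 in edgeR's quasi-likelihood test with bird as a block, or 0.532%. All 106 members were tested, and 4 passed, 1 higher and 3 lower in the second library. ENSGALG00000049448 differed by 0.23 ± 0.06 log2 units and ENSGALG00000007526 by -0.12 ± 0.03 (SE, adjusted p = 0.0476 and 0.0314 in edgeR). The other two were ENSGALG00000013575 at -0.20 ± 0.03 and ENSGALG00000033498 at -0.33 ± 0.08 (SE, adjusted p = 0.00363 and 0.0446 in edgeR). These values are mean shifts over the birds, at most 0.33 log2 units over all members, and not a spread. In these 4 members the SD between libraries ranged from 0.122 to 0.277, and the SD between birds from 1.10 to 2.22. The counts depended on which bird was left out. They fell without D2, D3, D7, A4, A6 or A7 and rose without D4, D5, A3 or A5. The same division appears in the order of the samples. There, the libraries of D4, D5, A3 and A5 are listed together, between the first and the second libraries of the other birds. No label says what this order stands for, and its part in the counts was not tested. The 83 genes and 4 members were called over both sets of birds together. Over all genes 12 to 22 were called without D2, D3, A4, A6 or A7, 38 without D7, 160 without D4, 201 without D5, 378 without A5 and 441 without A3. Of the members, 1 was called in each of the first 5 of these fits, 2 without D7, 5 without D4 and without D5, 8 without A5 and 11 without A3.

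The gene with the largest SD between birds was ENSGALG00000049448. It stood at 57.5 CPM in D2, 41.1 in D3, 1.31 in D4, 1.12 in D5 and 1.19 in D7, all avilamycin birds. In control birds it stood at 1.06 CPM in A3, 9.28 in A4, 21.5 in A5, 20.7 in A6 and 23.4 in A7. Both feeds thus held birds near 1 CPM and birds above 20 CPM, and the 2 libraries of a bird differed by at most 0.40 log2 units. Between avilamycin and control birds, edgeR gave it a log2 fold change of 0.41 ± 1.10 (SE, adjusted p = 0.923), and its sign turned without D2 (-0.43) or without D3 (-0.02). It moved together with 2 other members, at a mean correlation of 0.94 over the 10 birds. The summed level of these 3 genes was 8.58 to 18.8 CPM in D4, D5 and D7 and 21.7 CPM in A3, and 70.1 to 168 CPM in the other 6 birds.

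The second largest SD was that of ENSGALG00000043257. Its level in avilamycin birds was 3.16 CPM in D2, 27.8 in D3, 1.69 in D4, 2.97 in D5 and 6.83 in D7. In control birds it was 19.9 CPM in A3, 1.86 in A4, 0.965 in A5, 137 in A6 and 9.70 in A7. A6 was highest by a wide margin, and D3 and A3 followed. Between feeds, edgeR gave a log2 fold change of -1.99 ± 1.21 (SE, adjusted p = 0.573), and it was 0.09 without A6.

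**Figure D2:**
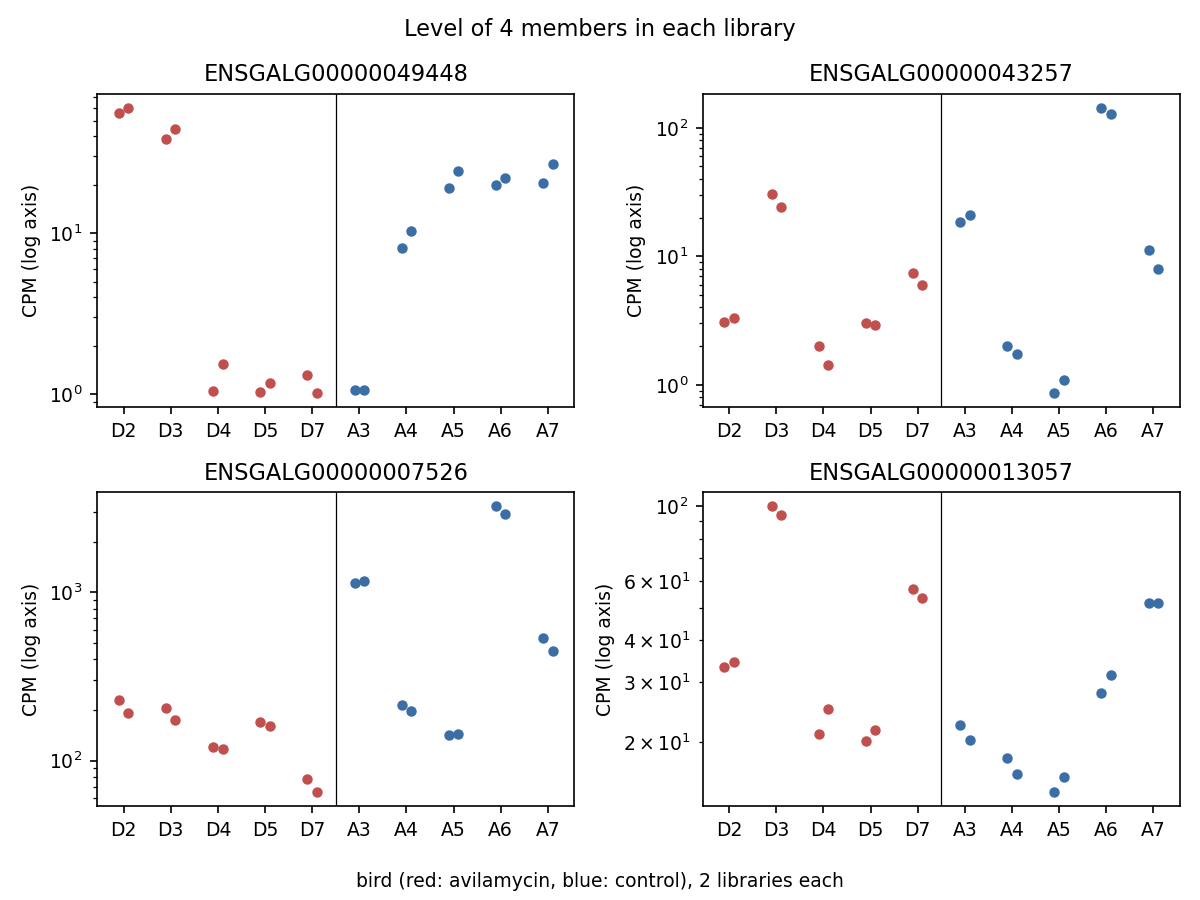
Level in CPM (log axis) of the 2 members with the largest SD (upper panels) and of the members that lead the first and second co-varying sets (lower panels), with avilamycin birds D2 to D7 in red on the left and control birds A3 to A7 in blue on the right. Each bird has 2 points, 1 per technical library, which lie close together. Birds of the same feed spread, as for ENSGALG00000007526 at 143 CPM in A5 and 3104 CPM in A6, both control birds.

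The members did not vary as 1 block. Deviations from the mean of the bird's feed were correlated between members over the 10 birds, as a description of birds that share these values. Over 5565 pairs of members the median correlation was 0.03, with 5.09% of pairs above 0.7 and 2.52% below -0.7. A tree of the members divided at a mean correlation of 0.7 gave 3 sets of at least 5 members with 28 members in all. A further 23 sets of 2 to 4 held 61 members, and 17 members stood alone. The mean deviations of the 3 larger sets correlated with each other at only -0.30 to 0.30.

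**Figure D3:**
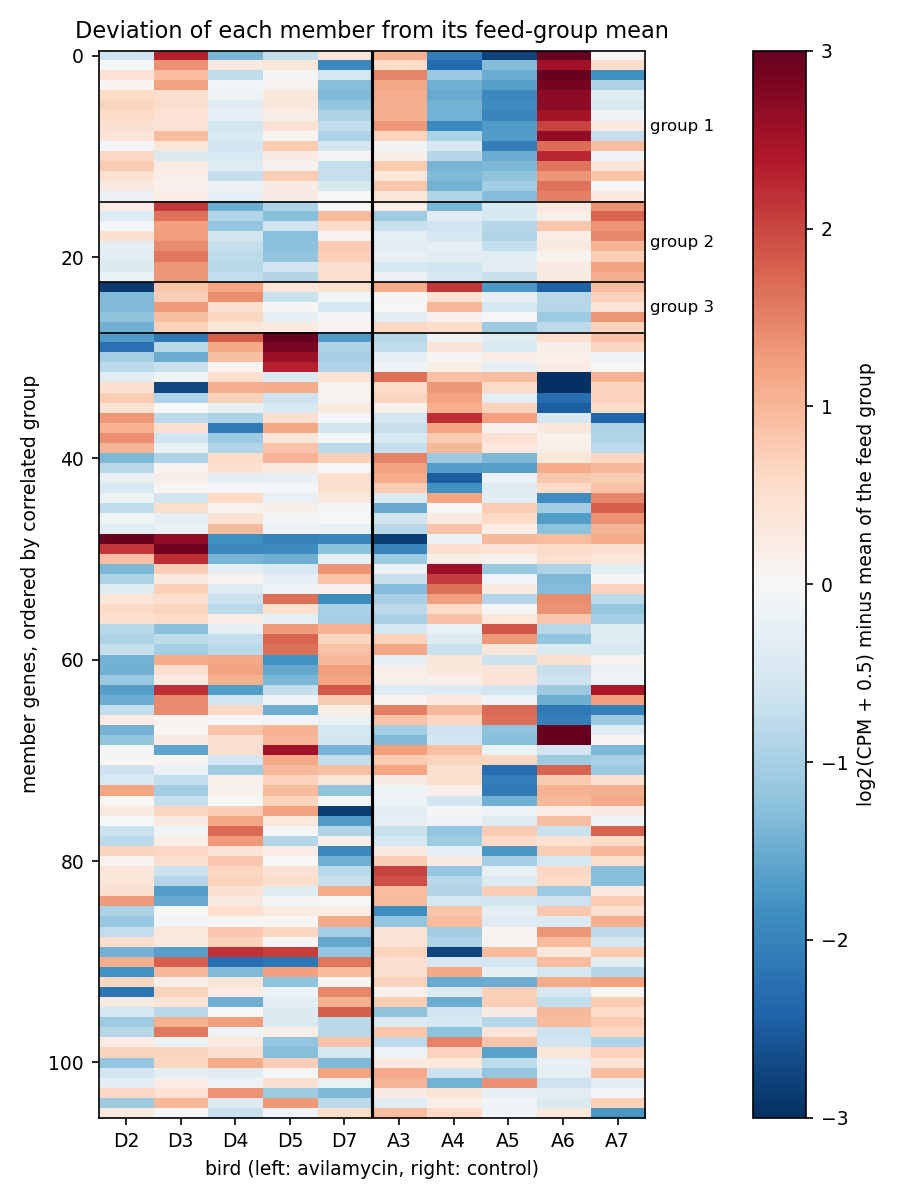
Deviation of each of the 106 members (rows) from the mean of its feed group in log2(CPM + 0.5), in avilamycin birds (left of the black line) and control birds (right), red for higher and blue for lower, limited at 3 log2 units. The 3 larger co-varying sets are at the top, and different birds stand out in different sets, as A6 in the first set and D3 in the second.

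The largest set held 15 members and was led by ENSGALG00000007526, the member with the highest mean correlation to the rest of the set. ENSGALG00000007526 was at 213 CPM in D2, 193 in D3, 119 in D4, 165 in D5 and 73.1 in D7. In control birds it was at 1154 CPM in A3, 205 in A4, 143 in A5, 3104 in A6 and 496 in A7. A6 was the highest bird and A3 the second, A7 was above every avilamycin bird, and A4 and A5 lay among them. The summed level of the 15 members was 5138 CPM in A6 and 1876 CPM in A3. In A7 the sum was 837 CPM, in A4 336 and in A5 254, and in avilamycin birds it was 357 in D2, 372 in D3, 202 in D4, 297 in D5 and 135 in D7. ENSGALG00000007526 makes up much of this sum, so its order of birds largely repeats that of the gene. With each of the 15 counted equally, the mean deviation from the feed mean was 2.31 log2 units in A6 and 0.788 in A3. It was -0.08 in A7, -1.37 in A4 and -1.65 in A5. For 13 of the 15, A6 was the bird with the largest deviation from its feed mean. The mean correlation within the set was 0.86, and without A6 10 of the 15 still formed 1 set. ENSGALG00000007530 and ENSGALG00000054964, singled out after their values were seen, had the closest pattern of any pair of members (r = 0.998). Their levels were within 0.883 to 1.10 of each other in every bird, and whether they share reads was not tested.

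All 15 members of this set had a lower fitted level in avilamycin birds, with a median log2 fold change of -2.54. For ENSGALG00000007526 the mean was 152 ± 56.5 CPM in avilamycin birds and 1020 ± 1230 CPM in control birds (SD, n = 5 each). Its fold change on the log2 scale was -2.75 ± 0.76 (SE, adjusted p = 0.280 in edgeR). Neither this gene nor any other of the 15 passed the threshold in edgeR, where the lowest adjusted p was 0.256, whereas DESeq2 called 4 of them, against 0.904% of all genes it tested. Without A6 the median was -1.52, 14 of the 15 had a lower level, and the value for ENSGALG00000007526 was -1.71. Since the set was formed from these birds, its count of signs is not independent support for a difference between feeds.

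The second set held 8 members and was led by ENSGALG00000013057. This gene was at 33.8 CPM in D2, 97.4 in D3, 23.2 in D4, 21.0 in D5 and 55.4 in D7, against 21.3 in A3, 16.9 in A4, 14.9 in A5, 29.5 in A6 and 51.6 in A7. D3 was highest, and D7 and A7 were nearly level. The summed level of the 8 members was 951 CPM in D3, 538 in D7, 322 in D2, 202 in D4 and 163 in D5. It was 506 CPM in control bird A7, 237 in A6 and 121 to 140 in A3, A4 and A5. The set stood high in 2 avilamycin birds and 1 control bird, and its mean correlation of 0.90 was above that of the first set. All 8 members stayed in 1 set under each omission of a bird. ENSGALG00000013057 had a log2 fold change of 0.79 ± 0.47 between feeds (SE, adjusted p = 0.558 in edgeR). The median over the set was 0.97, and 0.47 without D3.

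The third set held 5 members and set other birds apart. Its summed level was 188 CPM in D2, and 540 to 883 CPM in the other 4 avilamycin birds. In control birds it was 267 CPM in A5, 274 in A6 and 724 to 850 in A3, A4 and A7. The low birds were thus D2, A5 and A6, so that A6 was the highest bird in the first set and among the lowest here. The leading member of this set was at 11.2 CPM in D2, 71.0 in D3, 40.3 in D4, 29.5 in D5 and 20.5 in D7, against 21.5 in A3, 43.4 in A4, 14.8 in A5, 11.6 in A6 and 28.1 in A7. Its birds overlapped widely between feeds, at a log2 difference of 0.56 ± 0.47 (SE, adjusted p = 0.696 in edgeR) that ran from 0.11 without D3 to 0.87 without A4.

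**Figure D4:**
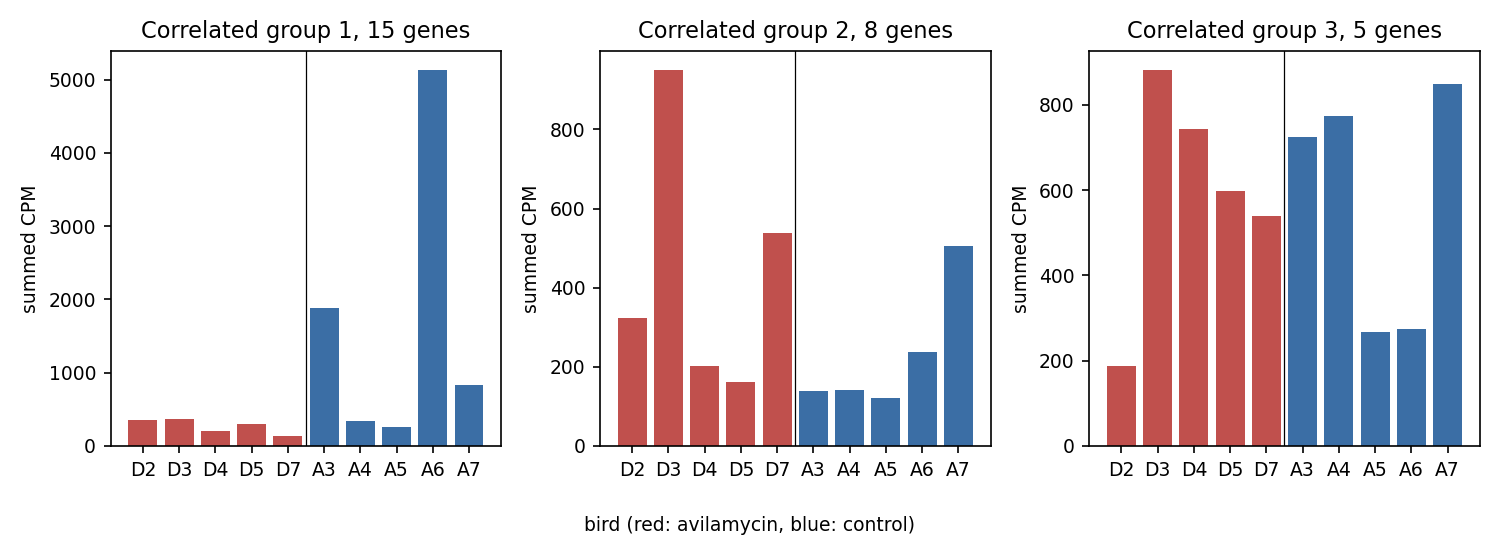
Summed CPM of the 15, 8 and 5 members of the 3 larger co-varying sets in each bird, avilamycin birds in red on the left and control birds in blue on the right, 1 bar per bird. The first set is highest in A6 at 5138 CPM, the second in D3 at 951 CPM, and the third is lowest in D2 at 188 CPM. Abundant members weigh most in these sums, as ENSGALG00000007526 at 3104 CPM in A6 in the first set.

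The 23 smaller sets differed in which birds, and how many, stood apart, and 3 chosen after their values were seen are given as examples. A set of 4 members summed to 284 CPM in D5 and 78.5 CPM in D4, against 16.4 to 18.4 CPM in D2, D3 and D7 and 12.4 to 18.8 CPM in control birds. Its leading member was at 62.9 CPM in D5 and 16.5 CPM in D4, and between 0.385 and 2.39 CPM in the other 8 birds. Another set of 4 summed to 23.9 CPM in A6, against 208 to 464 CPM in the other 9 birds. A6 was the lowest bird in each of the 4, but did not stand apart alone in all. ENSGALG00000046794 was also low in D3, at 17.8 CPM against 9.41 CPM in A6. ENSGALG00000043909 was at 7.78 CPM in D3 and 9.54 CPM in D5, against 5.79 CPM in A6. ENSGALG00000014372 and ENSGALG00000051964 were low in A6 alone, at 8.52 and 0.206 CPM, against at least 53.8 and 27.8 CPM in the other 9 birds. A pair of members summed to 538 CPM in A6 and to 8.64 to 54.5 CPM in the other 9 birds. In these 3 sets the birds that stood apart were high in the first and last and low in the second.

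Some members took either a high or a low level with little in between. In 7 members, or 6.60%, the largest step between neighbouring birds in order of level covered more than 50% of the whole log2 range and left at least 2 birds on each side. Over the 10741 genes the share was 1.88%. This measure was chosen after the values were seen, so the 7 are a description only, and some of them are named here as examples. ENSGALG00000002123 stood at 33.9 CPM in D4 and 31.9 CPM in D5, but at 2.35 in D2, 1.91 in D3 and 2.89 in D7. In control birds it was at 28.6 CPM in A3, 34.6 in A5, 22.6 in A6 and 31.1 in A7, but at 2.23 in A4. The 6 high and the 4 low birds included both feeds, and the step between them was 2.77 log2 units, whereas the high birds spread over 0.60 and the low birds over 0.49. ENSGALG00000040101 was low in D4 and D5 only, at 1.31 and 1.45 CPM, and at 14.1 to 40.9 CPM in the other 8 birds. ENSGALG00000048880 was high in D3, D7 and A7, at 15.2, 12.0 and 16.5 CPM, and at 0.578 to 1.90 CPM in the other 7.

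A step of that size parted 1 bird from the other 9 in 10 further members, with the single bird high in 3 and low in 7. The widest step of any member was that of ENSGALG00000051964, at 0.206 CPM in A6 and 27.8 to 63.2 CPM in the other 9 birds. Its 9 counts in A6 stand against at most 2840 in another bird, and its level in A6 was just above the 0.2 CPM that the choice of members required. In the remaining 89 members the largest step covered less than 50% of the range. Some lay just under this limit, as ENSGALG00000049448 with a step of 2.43 log2 units, or 46.6% of its range.

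**Figure D5:**
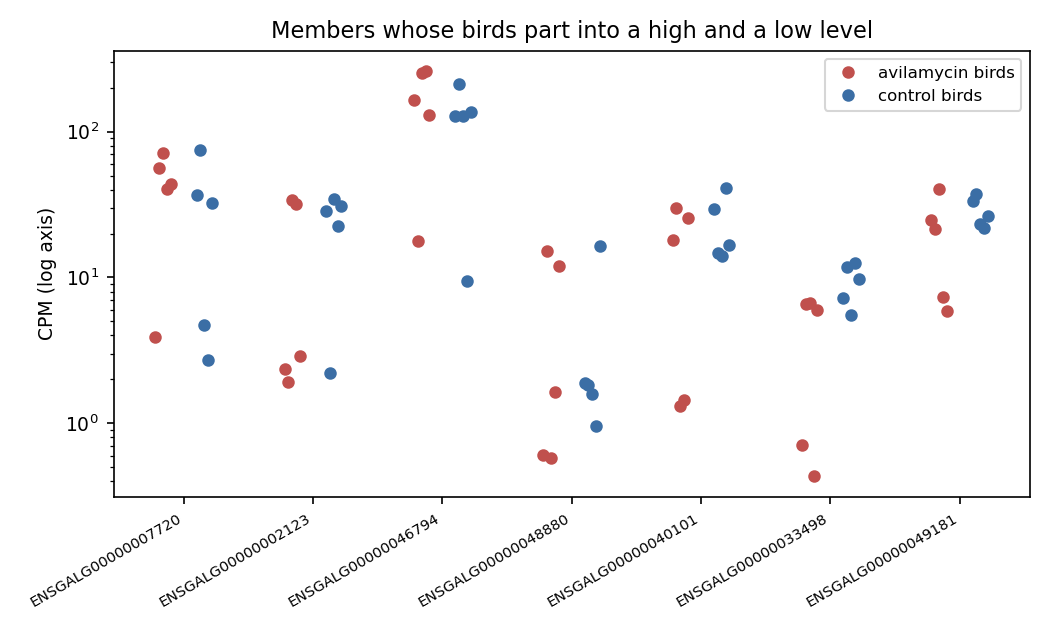
Level in CPM (log axis) in each bird of the 7 members whose birds part into a high and a low level, avilamycin birds in red on the left and control birds in blue on the right of each gene. That each gene has birds of at least 1 feed at both levels follows from the choice of members. In ENSGALG00000002123 the low birds (1.91 to 2.89 CPM) and the high birds (22.6 to 34.6 CPM) include both feeds.

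Control bird A6 carried the largest deviation more often than any other bird. It was the bird farthest from its feed mean in 26 of the 106 members (24.5%), above the mean in 17 and below it in 9, and 13 of the 26 belonged to the first set. Over the 10741 genes A6 was the farthest bird in 13.8%. For the other 9 birds the count ran from 5 members in D4 and in A3 to 12 in D5 and in A4. Avilamycin bird D2 was the farthest bird in 8.49% of the members, against 20.1% of the 10741 genes. The size of these deviations chose the members, and members of 1 set vary together. The shares of A6 and D2 are therefore a description only. A6 had 43679559 counts, within the range of 31130907 to 45371754 over birds. The members together took 0.369% to 0.537% of the counts in avilamycin birds and 0.367% to 0.889% in control birds, the highest share being that of A6.

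The median spread within feeds over the members was of similar size in both, but single members could vary mostly in 1 feed. The SD had a median of 0.938 log2 units among avilamycin birds and 1.08 among control birds over the members, against 0.146 and 0.145 over the 10741 genes. It was larger among control birds in 59 members (55.7%) and among avilamycin birds in 47. Over the 10741 genes it was larger among control birds in 49.9%. ENSGALG00000007526, which leads the first set, had an SD of 0.622 log2 units among avilamycin birds and 1.82 among control birds. The leading member of the set of 4 that was high in D4 and D5 had 2.61 and 0.678. The limit that chose the members was set on the SD pooled over both feeds, so a spread in 1 feed could suffice. These SDs entered the choice of members, so no test of their difference is given.

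The study asked how a growth promoter in feed bears on the host's intestinal transcriptome, and the calls among the members differed between tools, 0 in edgeR and in limma voom and 7 in DESeq2. Of 15516 genes, 0 passed an adjusted p of 0.05 in edgeR's quasi-likelihood test (0%), and 1721 had an unadjusted p under 0.05 (11.1%). All 106 members passed the filter on low counts and 0 were called, the lowest adjusted p being 0.253. An unadjusted p under 0.05 was found in 33 members, 10 higher and 23 lower in avilamycin birds, and 14 of the 33 belonged to the first set of 15. Limma voom called 0 of 15516 genes (0%) and gave such a p to 22 members, against 11.3% of all genes. An exact permutation test of each gene over the 252 assignments of birds (two-sided) gave such a p to 18 members, or 17.0%, against 10.0% of the 10741 genes. DESeq2 gave a p to 103 of the 106 members. Of the 7 members that DESeq2 called, 2 were higher and 5 lower, against 194 of 21458 genes (0.904%). The choice of members removed genes whose feeds do not overlap, 1.89% of the 10741 genes, and drew on the same birds, so nothing is read from these counts.

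The differences of the members with the smallest p are given as a description. The feeds overlap in every member by the choice of members, so the overlap itself is not a result. Of those higher in avilamycin birds, the one with the smallest p was at 12.0, 8.92, 18.5, 53.4 and 45.6 CPM in D2 to D7, against 2.02, 2.57, 12.6, 1.47 and 2.21 CPM in A3 to A7. Only A5 reached into the avilamycin range. Its level differed by 2.73 ± 0.70 log2 units (SE, adjusted p = 0.280 in edgeR and 0.0336 in DESeq2). Of those lower, the one with the smallest p was at 4.06, 0.477, 1.65, 3.40 and 0.375 CPM in D2 to D7, against 12.8, 15.7, 2.82, 29.2 and 29.8 CPM in A3 to A7. Again A5 alone lay in the range of the avilamycin birds, and the difference was -3.20 ± 0.72 log2 units (SE, adjusted p = 0.253 in edgeR and 0.0101 in DESeq2). The members second by p in each direction differed by 3.59 ± 0.94 and -2.64 ± 0.62 log2 units (SE, adjusted p = 0.280 and 0.256 in edgeR, 0.0172 and 0.0140 in DESeq2). The first of these belonged to the set that was high in D4 and D5, and the second to the first set of 15. The most abundant member, at 911 ± 193 CPM in avilamycin birds and 745 ± 514 CPM in control birds (SD, n = 5 each), differed by 0.30 ± 0.43 log2 units (SE, adjusted p = 0.843 in edgeR), and by 0.043 without A6 and 0.74 without A7. Its lowest bird was A6 at 186 CPM and its highest A7 at 1520 CPM, with all avilamycin birds between 732 and 1237 CPM.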

How the data were processed

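The table the authors deposited holds raw counts of reads for 24356 Ensembl IDs in each of 20 libraries, from total RNA depleted of ribosomal RNA and made into strand-specific libraries, per the labels' protocols. Tools named by the submitters' processing notes are HTSeq 0.6.1, SAMtools 1.7, Trimmomatic 0.36, STAR and DESeq2. The notes give them no role, and they name a genome build that differs from the one in the table's name, so no coordinates are given. No source used here says whether strand entered the counting, which leaves overlapping, antisense and near-identical genes uncertain. A second deposited file holds the same bytes as this table and was left aside.

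Library totals were 14079936 to 26708365 counts. The bird was the replicate. P-values between feeds measure the spread between birds, and the technical libraries are not replicates of a feed. P-values between libraries measure the spread between libraries within birds. The libraries were sequenced in 2 runs per the series' design text, which could not be tied to single libraries. Run was therefore not modelled, and its part in the differences between birds was not tested. Feeds were compared with edgeR 4.0.16 (R 4.3.3; quasi-likelihood test, TMM scaling, filterByExpr, Benjamini-Hochberg adjustment over all genes, group as the only term) on counts summed per bird. Libraries were compared in the same way on single libraries with bird as a block. Standard errors were derived from the F statistic. DESeq2 1.42.0 and limma 3.58.1 voom were alternatives. Co-varying sets came from an average-linkage tree of Pearson correlations. Both tests were tested on simulated data with 200 genes changed. The test between feeds recovered 37.3% of 1.5-fold, 70.1% of 2-fold and 90.9% of 4-fold changes, with 5 false among 137 calls. The test between libraries recovered 86.6%, 97.0% and 100% of these, with 8 false among 197 calls. The changed genes were drawn from all genes that passed the filter, so these rates do not describe genes as variable as the members.

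The members, sets and tests were chosen with earlier results of these data known. IDs were printed for the 2 members with the largest SD and the leading members of the 2 largest sets, and other IDs were singled out after their values were seen. Members with the highest mean CPM, the leading members of the next 2 sets and those of smallest p between feeds are described by what chose them. Lists of marker genes fixed by symbol could not be used. The reference table (25635 genes, assembly GRCg7b) holds no Ensembl IDs, so no ID could be matched to it, whether or not the gene is present there. For the same reason no sequence is shown.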

Additional observations from a re-analysis of the deposited data

Results flagged for a closer look

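Of 32 sets of 5 birds examined, 5 held a bird that stood apart, with a gap to its nearest neighbour above 0.71 of the range of the 5 birds. Gaps were measured in CPM and not in log2 units, and in all 5 the bird that stood apart was the highest. A rate of about 1 in 20 sets by chance holds for normally distributed values, and whether these are so was not tested. The members were also chosen for their spread, so the number of such sets is not read against chance. ENSGALG00000043257 stood apart in D3 at 27.8 CPM (next avilamycin bird 6.83 CPM) and in A6 at 137 CPM (next control bird 19.9 CPM). The leading member of the set of 4 that was high in D4 and D5 stood apart in D5 at 62.9 CPM (next avilamycin bird 16.5 CPM). A second member of that set, the one with the second smallest p among members higher in avilamycin birds, stood apart in D5 at 63.2 CPM (next avilamycin bird 19.1 CPM). The member with the smallest p among those higher in avilamycin birds stood apart in A5 at 12.6 CPM (next control bird 2.57 CPM).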

How the results depend on the processing

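The 106 members numbered 95 with log2(CPM + 1), 101 with TMM scaling, 115 from library 1 alone (99 shared) and 102 from library 2 alone (97 shared). They numbered 152 at an SD of 0.7, 59 at an SD of 1.0 and 95 to 120 without 1 bird. The median SD between birds (0.969 to 1.06) and its ratio to the SD between libraries (lowest 7.003, highest 8.50) moved little without 1 bird. The 2 largest sets held 15 and 8 members, 23 and 14 when divided at a mean correlation of 0.5, and 10 to 17 and 8 to 10 without 1 bird. Between feeds, DESeq2 called 194 genes and 7 members, and edgeR called 0 to 3 genes (3 without D2, 2 without A3, 1 without D4) and 0 members without 1 bird. Between libraries, no filter gave 406 genes and 7 members, and DESeq2 gave 1 member. Without 1 bird these counts ran from 12 (without D3) to 441 (without A3) genes and from 1 to 11 members. The count for A6 and that of the permutation test, with their alternatives, were chosen after seeing the data and stayed within 1.5 times. The log2 fold change of ENSGALG00000049448 turned to -1.08 in voom and to -0.43 without D2 and -0.02 without D3, within -0.43 to 0.72 over the omissions of 1 bird. That of ENSGALG00000043257 turned to 0.094 without A6, within -3.21 to 0.094. Beside the calls of DESeq2 on 4 other described members, no described fold change crossed the threshold. The causes were not tested.

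Both feeds have birds numbered 3, 4, 5 and 7. Deviations of birds with a shared number, over the genes that passed the filter on low counts, correlated at -0.034 to 0.083. No pairing by number was thus seen over these genes as a whole, and a pairing limited to few genes was not tested. With the number as a replicate block, 0 genes and 0 members were called in these 8 birds, and likewise unblocked. The log2 fold change of ENSGALG00000049448 was -2.49 with the block and -0.29 without it, and that of ENSGALG00000043257 was 0.33 and 0.31.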
